A study of Mus musculus with 2 samples.

Results

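The genes described here make cholesterol and fatty acids. They were chosen by symbol, and all 34 were found among the 32285 genes of the deposited matrices: 19 enzymes of sterol synthesis, 10 enzymes that make, elongate or desaturate fatty acids, and 5 genes of sterol regulation, transport and breakdown. They were measured by single-cell RNA sequencing in live eYFP+ cells sorted from the stromovascular fraction (SVF) of perigonadal white adipose tissue (gWAT), the fraction left once mature adipocytes have been floated off. The mice were male Cyp1a1 fate reporters, Cyp1a1Cre x R26LSL-eYFP, in which Cre driven by the Cyp1a1 promoter marks a cell permanently once Cyp1a1, a target of the aryl hydrocarbon receptor (AHR), has been active. The first library came from mice on a low-fat diet (LFD, 10% fat) and the other from mice on a high-fat diet (HFD, 60% fat), each from 2 pooled mice per the study, after 12 weeks of diet. All the mice, on either diet, were also given FICZ, which activates AHR, at 10 mg/kg, and their gWAT was taken 5 days later, so neither library shows cells without that ligand, and cells that had never switched Cyp1a1 on were not sampled. The comparison asked how the lipid synthesis genes of AHR-responsive cells differed between lean and obese fat.

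Cholesterol is built from acetyl-CoA through mevalonate to the prenyl diphosphates, which are then either used to lipidate proteins or committed to sterols by way of squalene and lanosterol. The transcription factors encoded by Srebf1 and Srebf2 (SREBPs) sit in the endoplasmic reticulum and are released to switch these genes on when membrane sterol is low, while INSIG proteins hold them back when sterol is plentiful. Fatty acid synthesis draws on the same cytosolic acetyl-CoA, supplied by ATP citrate lyase, and is carried on by acetyl-CoA carboxylase, fatty acid synthase, elongases and desaturases. In fat tissue these pathways are best known from adipocytes, which the SVF largely lacks.

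Each diet was represented by 1 library, which leaves the spread between mice unmeasured, so the diets are compared by size alone and p-values are not given. UMIs were summed over the cells of a type in a library and expressed as counts per 1000000 UMIs of that type (CPM). Every ratio below is the HFD level divided by the LFD level, followed in parentheses by its exact 95% interval, which covers counting error only and none of the difference between mice, sorts or libraries. A gene is called higher or lower in a type only where the ratio was at least 1.5-fold in that direction. At least 50 UMIs over both libraries were also required. The share of all genes called the same way is given beside the counts of genes in a type. The genes were chosen with earlier results of these data known, so that share is a description and not a test. No such share was computed for overlap of intervals, or for counts of types per gene outside the stromal-like types. All types come from the same 2 libraries, so agreement between types is not independent. Ratios inside that fold are given as values, and the types said to be highest are those among the compared, dendritic-like and neutrophil-like types. T-like cells held 391989 LFD and 396883 HFD UMIs in all and neutrophil-like cells 256303 and 87316, so levels ranked there often rest on few UMIs. Of the 34 genes, all passed 50 UMIs in the Wt1-positive stroma-like and both mesothelial-like types, 32 did so in adipose progenitor-like, 29 in endothelial-like and cycling plasma-like, 22 in macrophage-like and plasma-like, 21 in B-like, 14 in cycling B-like, 4 in ILC2-like and 3 in T-like cells.

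The LFD library held 9294 cells after filtering and the HFD library 7879, with 114311020 and 119498750 UMIs in all deposited barcodes and medians of 10636.5 and 13231 UMIs per cell passing the quality limits. The libraries shared 27 barcodes. Cells were clustered without the described genes and named from markers, and 12 types had at least 100 cells in both libraries. They ranged from 3595 LFD and 1687 HFD Wt1-positive stroma-like cells to 112 and 101 ILC2-like cells. The cycling mesothelial-like clusters also carried 85.7% of the Wt1-positive stroma markers, but that list summed to 1438 CPM (LFD) and 1791 CPM (HFD) in mesothelial-like cells and to 1292 and 1473 CPM in Wt1-positive stroma-like cells, so it does not separate these types. The 10 mesothelial markers summed to 157 and 454 CPM in Wt1-positive stroma-like and 1610 and 2245 CPM in mesothelial-like cells. Cycling mesothelial-like cells lay between them at 653 and 1193 CPM, so their name does not set them apart from the stroma-like cells. A list of 10 adipocyte markers summed to between 16.6 and 72.6 CPM in 11 of the 12 types, and to 332 CPM (LFD) and 264 CPM (HFD) in endothelial-like cells. Genes of other lineages were also counted, at levels that differed between the libraries. The stromal gene Pdgfra had an LFD level of 16.8 CPM against 6.79 CPM in B-like cells, and the B-lineage gene Ighm had 57.0 and 341 CPM in mesothelial-like and 147 and 442 CPM in cycling mesothelial-like cells, where a list of 9 B-cell markers summed to 13.1 and 12.7 CPM. The median gene was itself shifted by over 0.1 (log2) in adipose progenitor-like (0.10), cycling mesothelial-like (0.13), mesothelial-like (0.13), endothelial-like (0.14) and plasma-like cells (-0.15).

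Promoter sequences are shown first for 4 enzymes of the sterol arm and for Ggps1, an enzyme of the same chain with HFD to LFD ratios above 1 in 10 of 10 types, because SREBPs act together with the CCAAT-binding factor NF-Y at sterol gene promoters. Each runs from 250 bases before to 50 bases after the start of the gene in RefSeq on GRCm38.p6, in the direction of transcription. Capitals mark CCAAT on either strand (read as ATTGG on the other) and the sterol response element letters TCACCCCAC on either strand.
Hmgcs1, chr13:119690101-119690400, plus strand: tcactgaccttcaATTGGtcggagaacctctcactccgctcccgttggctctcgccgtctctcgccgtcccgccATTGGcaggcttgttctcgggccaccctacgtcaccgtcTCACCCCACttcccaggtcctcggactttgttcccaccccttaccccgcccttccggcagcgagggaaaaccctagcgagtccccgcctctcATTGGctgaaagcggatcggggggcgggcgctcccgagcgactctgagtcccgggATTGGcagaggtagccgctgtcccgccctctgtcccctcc
Idi1, chr13:8885356-8885655, plus strand: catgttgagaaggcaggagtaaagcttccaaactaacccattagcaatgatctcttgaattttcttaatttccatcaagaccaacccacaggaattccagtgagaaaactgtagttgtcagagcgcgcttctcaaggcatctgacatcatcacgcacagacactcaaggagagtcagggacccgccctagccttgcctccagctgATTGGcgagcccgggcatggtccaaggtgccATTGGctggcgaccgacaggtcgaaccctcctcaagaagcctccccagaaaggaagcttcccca
Mvd, chr8:122443373-122443672, minus strand: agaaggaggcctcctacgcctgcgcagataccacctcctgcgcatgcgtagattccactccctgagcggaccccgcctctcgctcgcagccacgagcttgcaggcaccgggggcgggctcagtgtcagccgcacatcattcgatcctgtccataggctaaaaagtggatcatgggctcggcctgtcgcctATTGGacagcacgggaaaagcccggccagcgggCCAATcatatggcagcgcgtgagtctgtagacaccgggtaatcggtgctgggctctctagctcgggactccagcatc
Cyp51, chr5:4104648-4104947, minus strand: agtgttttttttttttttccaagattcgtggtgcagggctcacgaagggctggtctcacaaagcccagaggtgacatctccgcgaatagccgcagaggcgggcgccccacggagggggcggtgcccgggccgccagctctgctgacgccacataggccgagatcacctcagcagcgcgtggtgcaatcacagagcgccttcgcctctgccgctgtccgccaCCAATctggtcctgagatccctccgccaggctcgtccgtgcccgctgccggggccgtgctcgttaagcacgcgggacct
Ggps1, chr13:14063439-14063738, minus strand: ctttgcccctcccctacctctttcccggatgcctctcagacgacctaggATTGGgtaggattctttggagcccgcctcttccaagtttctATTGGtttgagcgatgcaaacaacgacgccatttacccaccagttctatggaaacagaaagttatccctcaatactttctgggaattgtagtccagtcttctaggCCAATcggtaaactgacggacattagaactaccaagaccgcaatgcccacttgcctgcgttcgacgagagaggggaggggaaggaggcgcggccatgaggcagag

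The Hmgcs1 window held 4 copies of CCAAT and 1 of TCACCCCAC, the Idi1 and Mvd windows 2 copies of CCAAT each, the Cyp51 window 1 and the Ggps1 window 3. RefSeq promoters were at hand for 26 of the 34 genes, without Fdps, Fdft1, Sqle, Stard4, Cyp7b1, Scd1, Scd2 and Fads1. CCAAT was present in 15 of 16 sterol enzymes (all but Acat2), in 3 of 3 regulators and in 4 of 7 fatty acid enzymes, against 41.1% of all genes. TCACCCCAC was found in Hmgcs1 alone among the 26, against 0.614% of all genes, and the E-box CACGTG on either strand in Hsd17b7, Sc5d, Dhcr7, Insig1 and Elovl5, against 8.09%. A match describes the letters of the window and is not a measured binding site.

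Taken as a sum, the 19 sterol enzymes were lower in HFD in most cell types. In adipose progenitor-like cells their summed level was 698 CPM in LFD and 486 CPM in HFD, a ratio of 0.696 (0.654 to 0.740). In mesothelial-like cells, which had the highest LFD sum of all compared types, it was 770 and 597 CPM, a ratio of 0.775 (0.756 to 0.795). The ratio was 0.702 (0.648 to 0.761) in plasma-like, 0.725 (0.593 to 0.883) in ILC2-like, 0.806 (0.759 to 0.856) in cycling plasma-like, 0.816 (0.749 to 0.887) in endothelial-like, 0.835 (0.771 to 0.905) in macrophage-like, 0.907 (0.829 to 0.992) in B-like and 0.915 (0.886 to 0.944) in cycling mesothelial-like cells. In 3 types the interval held 1: Wt1-positive stroma-like cells at 446 and 443 CPM, with a ratio of 0.994 (0.972 to 1.02), T-like cells at 1.01 (0.831 to 1.22) and cycling B-like cells at 1.02 (0.895 to 1.16). Without Fdps, the gene that moved it most, the cycling mesothelial-like ratio was 0.969 (0.937 to 1.00) and that of Wt1-positive stroma-like cells 1.03 (1.00 to 1.05). The value of the progenitor-like cells rested on how those cells were drawn together: when each cell was named from its own marker UMIs instead of by cluster, 2195 LFD and 1396 HFD cells took that name and the ratio was 1.03. Under that naming none of the 8 sterol enzymes called lower in progenitor-like cells stayed past the fold, with Fdps at 0.78 the lowest. In macrophage-like cells with under 5% mitochondrial UMIs and at least 1000 genes (142 LFD and 148 HFD cells) it was 1.19.

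The 10 fatty acid enzymes followed the sterol enzymes in some types and not in others. Their sum was lower in HFD in Wt1-positive stroma-like cells, at 343 and 296 CPM with a ratio of 0.863 (0.840 to 0.886), in cycling mesothelial-like cells at 0.861 (0.826 to 0.898), in mesothelial-like cells at 0.869 (0.838 to 0.901) and in macrophage-like cells at 0.851 (0.763 to 0.95). In mesothelial-like cells the ratio was 1.01 under the stricter cell filter. The sum was higher in ILC2-like cells at 1.36 (1.11 to 1.67) and in B-like cells at 1.09 (1.02 to 1.17), while in endothelial-like cells the value of 1.10 (1.02 to 1.18) went to 0.999 when ratios were scaled to the median gene and to 0.879 when cells were weighted equally. The interval held 1 in adipose progenitor-like (0.974), cycling B-like (0.928), plasma-like (0.992), cycling plasma-like (0.936) and T-like cells (1.21). With doublets kept the plasma-like ratio was 0.635. Single genes decided several of these sums. Without Elovl5 the ILC2-like sum was 176 CPM in LFD and 148 CPM in HFD (0.842, 0.609 to 1.16) and the endothelial-like ratio 0.929 (0.854 to 1.01), both on the other side of 1. Without Scd1 the cycling B-like ratio was 1.16 (0.976 to 1.38), without Scd2 the cycling mesothelial-like ratio was 0.969 (0.926 to 1.01), and without Acly the progenitor-like ratio was 0.895 (0.825 to 0.971).

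**Figure D1:**
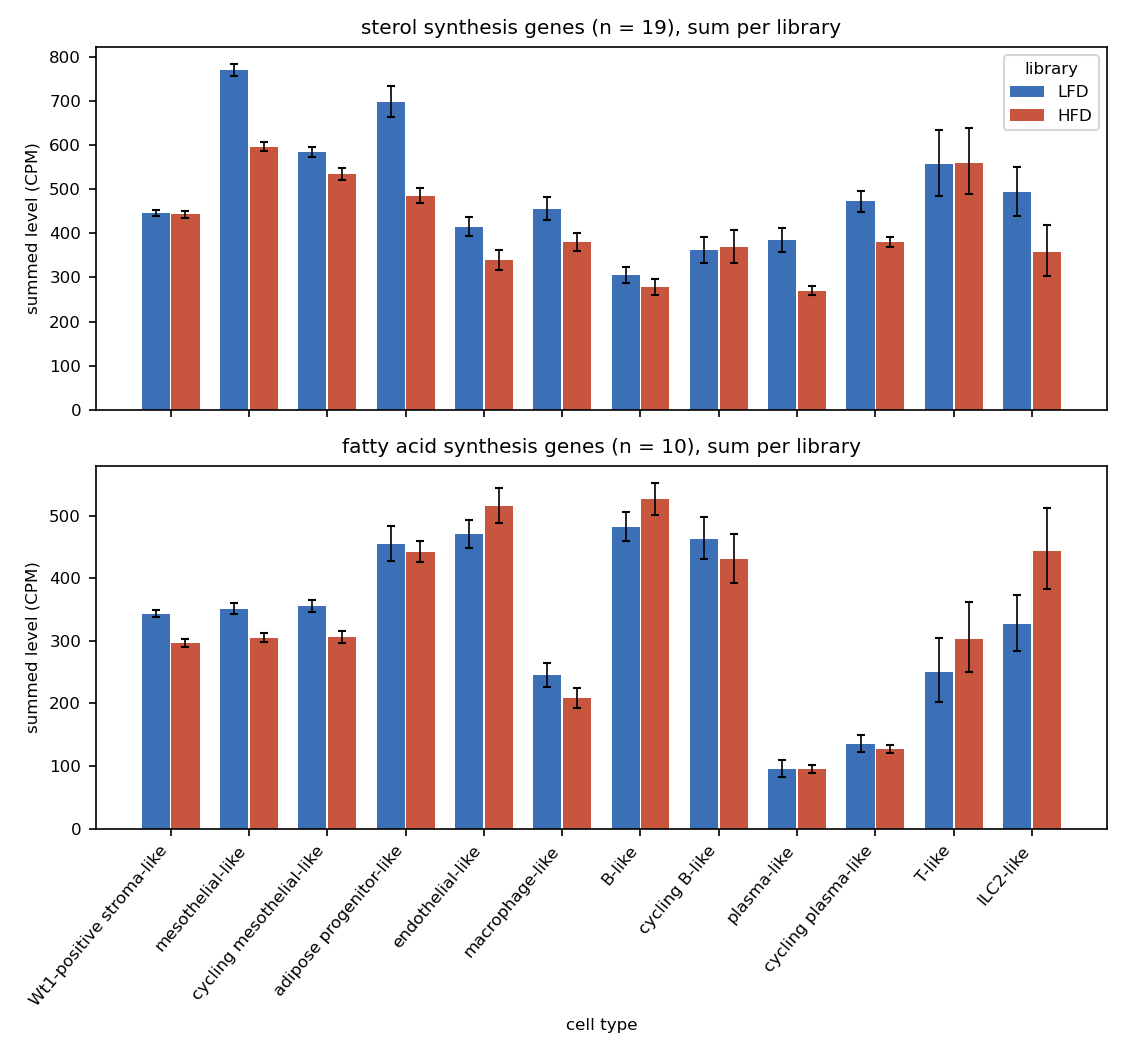
Summed level in CPM of the 19 sterol enzymes (top) and the 10 fatty acid enzymes (bottom) in each of the 12 compared cell types, with LFD in blue and HFD in red. Error bars are exact 95% Poisson intervals. The sterol bars of mesothelial-like cells stand at 770 CPM (LFD) and 597 CPM (HFD), while those of Wt1-positive stroma-like cells are level at 446 and 443 CPM.

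By gene, the sterol enzymes called in a compared type were mostly lower in HFD. In adipose progenitor-like cells 8 of the 17 that passed were called lower and 1 higher, against 5.11% and 15.5% of all genes tested there. In mesothelial-like cells 4 of 19 were lower, against 3.18%, and in endothelial-like cells 6 of 15, against 7.59%, with 1 higher, against 17.4%. In plasma-like cells 5 of 14 were lower, where 14.0% of all genes were, and so were 5 of 17 in cycling plasma-like cells (4.9%), 3 of 13 in macrophage-like cells (4.04%), 2 of 11 in B-like cells (6.09%), 1 of 7 in cycling B-like cells (4.75%) and 1 of 19 in cycling mesothelial-like cells (3.75%). In the last pair of types 1 enzyme was also called higher, Ebp in cycling B-like (6.91%) and Lss in cycling mesothelial-like cells (7.9%). None was called higher in mesothelial-like (8.38%), B-like (9.49%), macrophage-like (7.69%), plasma-like (6.6%) or cycling plasma-like cells (5.44%), and none either way in T-like (8.13% lower, 11.5% higher) or ILC2-like cells (13.0% lower, 16.7% higher), where 2 enzymes passed. No sterol enzyme was called in Wt1-positive stroma-like cells, where 7.09% of all genes were lower and 6.79% higher. A list of 10 cycling markers moved as well: it summed to 1275 CPM in LFD and 598 CPM in HFD in endothelial-like, 213 and 94.2 CPM in progenitor-like, 292 and 173 CPM in plasma-like, 236 and 156 CPM in B-like, 236 and 175 CPM in mesothelial-like, 2100 and 1194 CPM in ILC2-like, 2395 and 1658 CPM in T-like, and 78.6 and 256 CPM in macrophage-like cells. The other 4 types differed less, from 244 and 237 CPM in Wt1-positive stroma-like to 5050 and 5629 CPM in cycling B-like cells. In endothelial-like cells a list of 8 mural markers summed to 67.3 and 203 CPM. A list of 7 neutrophil markers summed to 223 and 62.7 CPM in macrophage-like, 83.4 and 2.33 CPM in progenitor-like and 66.1 and 2.43 CPM in plasma-like cells. It went the other way in cycling B-like cells, at 18.1 and 134 CPM. In B-like cells 4 germ cell markers summed to 289 and 0.647 CPM. The part of these markers in the counts and sums was not tested. The median ratio of the sterol enzymes that passed was 0.667 in progenitor-like cells, against 1.07 for all genes tested, 0.833 against 1.09 in mesothelial-like cells and 0.987 against 1.06 in Wt1-positive stroma-like cells.

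**Figure D2:**
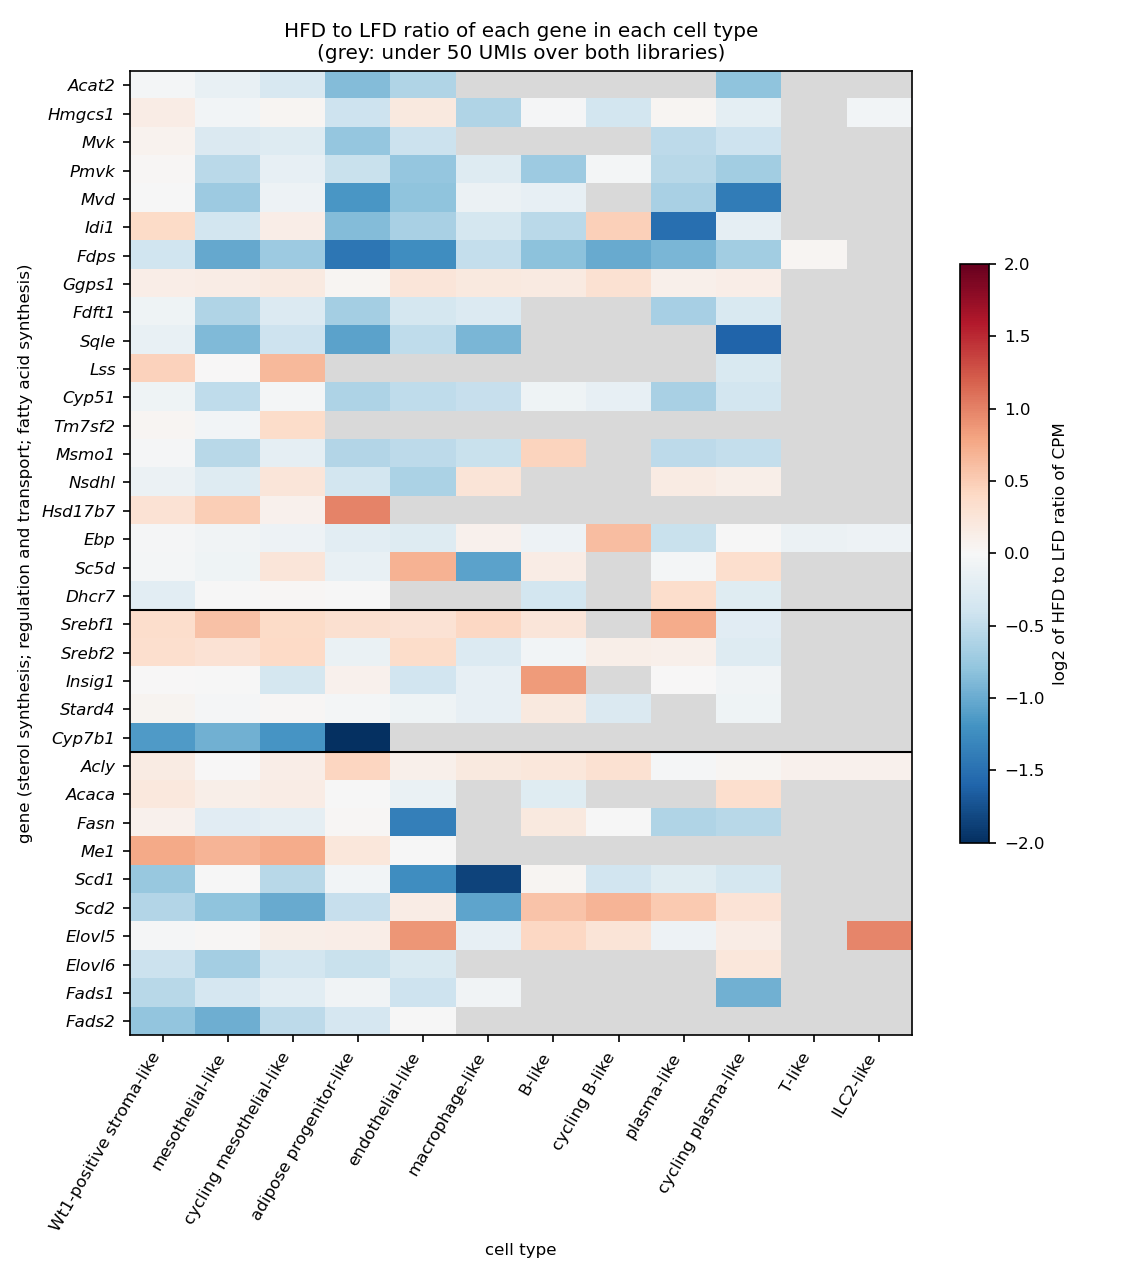
The log2 of the HFD to LFD ratio of CPM for each of the 34 genes (rows, with lines between sterol enzymes, regulators and fatty acid enzymes) in the 12 compared cell types (columns), blue where HFD was lower and red where it was higher. Grey marks fewer than 50 UMIs over both libraries. Blue fills most of the sterol block in the adipose progenitor-like column, the Cyp7b1 row is blue in all 4 stromal columns, from 0.515 in mesothelial-like to 0.224 in adipose progenitor-like cells, and the Ggps1 and Me1 rows are red or near white.

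The first steps of the chain make mevalonate and its phosphates. Hmgcs1, which makes HMG-CoA and is a classical SREBP target, was highest in adipose progenitor-like cells (136 CPM in LFD and 102 CPM in HFD, ratio 0.749, 0.652 to 0.862) and next in mesothelial-like cells (106 and 102 CPM, ratio 0.963, 0.903 to 1.03). It was called lower only in macrophage-like cells among the 11 types tested, at 53.4 and 35.3 CPM (0.661, 0.513 to 0.853), and its ratio in Wt1-positive stroma-like cells was 1.11 (1.04 to 1.18). It was past the fold in none of the 4 stromal-like types, and was 0.775 (0.463 to 1.27) in cycling B-like and 0.966 (0.522 to 1.75) in ILC2-like cells. Acat2, the cytosolic acetyl-CoA acetyltransferase, had ratios below 1 in all 6 types tested, from 0.547 (0.330 to 0.919) in progenitor-like to 0.977 in Wt1-positive stroma-like cells, and was also called lower in cycling plasma-like (0.575, 0.363 to 0.929) and endothelial-like cells (0.661, 0.376 to 1.13). Its top LFD types were mesothelial-like (15.7 CPM) and cycling mesothelial-like cells (15.5 CPM), with 14.2 CPM in HFD mesothelial-like and 13.0 CPM in HFD cycling B-like cells. Of the 50-base words in the last 500 bases of its transcripts, 31.4% also occur in Acat3, so the 2 genes may share reads. Mvk, mevalonate kinase, stood highest in LFD in progenitor-like (27.2 CPM) and mesothelial-like cells (22.1 CPM), and in HFD in mesothelial-like (18.1 CPM) and cycling mesothelial-like cells (16.7 CPM). It was called lower only in the progenitor-like cells among 7 types tested (0.582, 0.418 to 0.817). In progenitor-like cells named cell by cell the Mvk ratio was 1.03.

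Phosphomevalonate kinase, Pmvk, was highest in a different cell. Dendritic-like cells, which with 97 LFD and 76 HFD cells were too few to compare, had an LFD level of 172 CPM (141 to 208) against 104 CPM (79.0 to 133) in HFD, while the highest levels among the compared types were 45.9 CPM (T-like, LFD) and 37.0 CPM (macrophage-like, HFD). Cycling dendritic-like cells, with 16 and 6 cells, had 82.6 and 75.8 CPM from 14 and 6 UMIs. Pmvk was called lower in endothelial-like (38.6 and 22.6 CPM, ratio 0.586, 0.424 to 0.8), B-like (25.8 and 15.5 CPM, 0.601, 0.415 to 0.860) and cycling plasma-like cells (35.1 and 21.7 CPM, 0.619, 0.492 to 0.784). Mvd, which decarboxylates mevalonate diphosphate, had ratios below 1 in 9 of 9 types and was called lower in 5: cycling plasma-like (0.379, 0.236 to 0.613), progenitor-like (0.446, 0.256 to 0.782), mesothelial-like (0.602, 0.476 to 0.760), endothelial-like (0.572, 0.285 to 1.08) and plasma-like cells (0.637, 0.367 to 1.16), the last pair with intervals that held 1. Mvd was highest in ILC2-like (31.4 CPM) and macrophage-like cells (26.5 CPM) in LFD, and in macrophage-like (24.5 CPM) and B-like cells (11.3 CPM) in HFD.

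Idi1, the isomerase that makes the reactive prenyl unit, split the cell types. It was called lower in plasma-like (12.0 and 4.23 CPM, ratio 0.353, 0.209 to 0.607), progenitor-like (48.6 and 26.7 CPM, 0.549, 0.428 to 0.707) and endothelial-like cells (20.5 and 13.1 CPM, 0.639, 0.412 to 0.972), and its ratio was 0.778 (0.704 to 0.859) in mesothelial-like cells. In Wt1-positive stroma-like cells it lay on the other side, at 21.3 and 27.7 CPM (1.30, 1.18 to 1.43), and in cycling B-like cells it was 1.40 (0.820 to 2.37). B-like cells had 16.5 and 11.3 CPM (0.687, 0.439 to 1.06). Its highest LFD levels were in dendritic-like (60.1 CPM) and mesothelial-like cells (49.7 CPM), and in HFD in mesothelial-like (38.7 CPM) and cycling mesothelial-like cells (35.6 CPM). In progenitor-like cells named cell by cell the Idi1 ratio was 1.23. Of the 50-base words in the last 500 bases of its transcripts, 38.8% also occur in other annotated genes, all of them Gm genes, so reads from copies may be part of this count.

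Fdps and Ggps1 sit at the branch of the pathway and gave different values. Fdps (chromosome 3, 89093588 to 89101959, minus strand) encodes farnesyl diphosphate synthase, whose product feeds both squalene and protein prenylation. Of the sterol enzymes it was called lower in the most cell types: the ratio and its whole interval lay under 1 in 10 of the 11 types tested, and 8 of them passed 1.5-fold. How many of all genes were lower in as many types was not counted. The levels in LFD and HFD were 127 and 62.8 CPM in mesothelial-like cells (0.493, 0.459 to 0.529), 101 and 37.0 CPM in progenitor-like cells (0.367, 0.304 to 0.444), and 59.1 and 25 CPM in endothelial-like cells (0.423, 0.315 to 0.562). Immune types showed the same direction, with 94.8 and 50.4 CPM in plasma-like (0.532, 0.449 to 0.631), 98.5 and 61.0 CPM in cycling plasma-like (0.619, 0.540 to 0.711), 22.8 and 12.9 CPM in B-like (0.567, 0.379 to 0.837), 39.3 and 19.5 CPM in cycling B-like (0.497, 0.288 to 0.825) and 43.3 and 31.2 CPM in macrophage-like cells (0.720, 0.546 to 0.95). Cycling mesothelial-like cells had 86.2 and 51.9 CPM (0.602, 0.547 to 0.662) and Wt1-positive stroma-like cells 53.5 and 40.7 CPM (0.761, 0.709 to 0.816), while in T-like cells the levels were 66.3 and 68.0 CPM (1.03, 0.576 to 1.83). Dendritic-like cells held the top LFD level at 156 CPM (127 to 190) and stood at 46.6 CPM (30.7 to 67.8) in HFD, where T-like and mesothelial-like cells were the highest. When cells were thinned to 2000 UMIs, 17.0% of LFD and 9.29% of HFD mesothelial-like cells still had an Fdps UMI. Of the 50-base words in the last 500 bases of its transcripts, 50.5% also occur in other annotated genes, most of them unnamed Gm genes, so reads from copies may be part of this count.

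Ggps1, which extends the same product to geranylgeranyl diphosphate, had ratios above 1 in 10 of 10 types, none past 1.5-fold and only that of the Wt1-positive stroma-like cells (29.2 and 31.9 CPM, 1.09) with an interval above 1. The range ran from 1.03 (0.779 to 1.37) in progenitor-like to 1.24 (0.760 to 2.00) in cycling B-like cells. The median of all genes tested was 1.07 in progenitor-like, 1.06 in Wt1-positive stroma-like, 1.09 in mesothelial-like (Ggps1 1.11), 1.10 in endothelial-like (Ggps1 1.18), 1.05 in B-like (Ggps1 1.137), 1.03 in cycling B-like, 0.967 in cycling plasma-like (Ggps1 1.09) and 0.900 in plasma-like cells (Ggps1 1.07). The highest levels were in endothelial-like (34.9 CPM LFD, 41.3 CPM HFD) and T-like cells (33.2 and 45.4 CPM). In the types where both were tested, the Fdps and Ggps1 intervals did not overlap in Wt1-positive stroma-like, mesothelial-like, cycling mesothelial-like, progenitor-like, endothelial-like, B-like, plasma-like and cycling plasma-like cells, and overlapped in macrophage-like and cycling B-like cells. These intervals cover counting error only, and how many other gene pairs lay apart in this way was not counted.

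**Figure D3:**
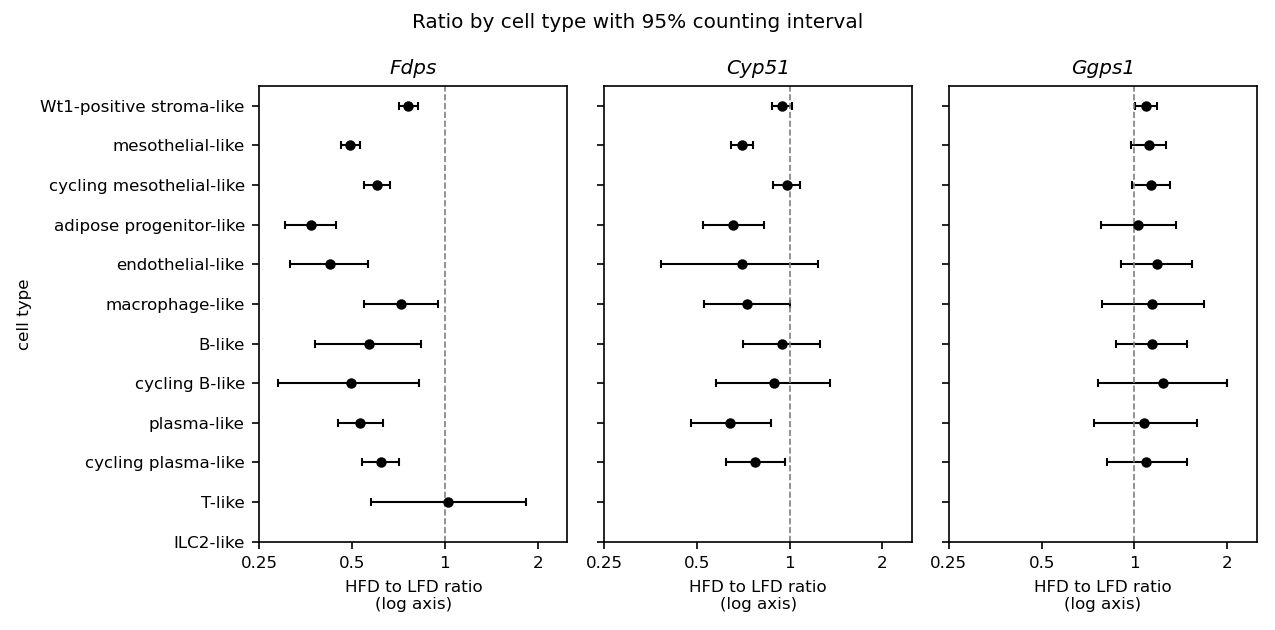
HFD to LFD ratio of Fdps, Cyp51 and Ggps1 in each compared cell type, on a log axis, with exact 95% intervals for counting error and a dashed line at 1. Types with fewer than 50 UMIs are left out. Fdps lies left of the line with its whole interval in 10 of 11 types, Cyp51 lies left of it in 10 of 10 as a point value, and Ggps1 lies right of it in 10 of 10.

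The steps committed to sterol came next. Fdft1, squalene synthase, had ratios below 1 in 8 of 8 types and was called lower in progenitor-like (33.5 and 20.8 CPM, 0.623, 0.464 to 0.841), mesothelial-like (35.2 and 23.1 CPM, 0.658, 0.580 to 0.745) and plasma-like cells (6.70 and 4.23 CPM, 0.630, 0.336 to 1.25). In progenitor-like cells named cell by cell the Fdft1 ratio was 1.01. Of the 50-base words in the last 500 bases of Fdft1 transcripts, 19.0% also occur in another annotated gene. Mesothelial-like and progenitor-like cells held its highest LFD levels, and cycling mesothelial-like (24.7 CPM) and mesothelial-like cells its highest HFD levels. Sqle, squalene epoxidase, a rate-limiting enzyme of the sterol arm, was below 1 in 7 of 7 types and called lower in 4. The levels were 42.5 and 23.0 CPM in mesothelial-like (0.541, 0.479 to 0.609), 38.8 and 18.5 CPM in progenitor-like (0.477, 0.357 to 0.639), 18.1 and 9.63 CPM in macrophage-like (0.533, 0.330 to 0.854) and 18.7 and 6.17 CPM in cycling plasma-like cells (0.331, 0.230 to 0.477). In Wt1-positive stroma-like cells Sqle stood at 20.3 and 18.2 CPM (0.898, 0.805 to 1.00). Under the stricter cell filter the macrophage-like ratio was 1.09, with doublets kept it was 0.67, and in progenitor-like cells named cell by cell Sqle was at 0.91. Lss, which closes the ring to lanosterol, was tested in 4 types. It was called higher in cycling mesothelial-like cells (4.30 and 6.70 CPM, 1.56, 1.12 to 2.18), against 7.9% of all genes, and was 3.89 and 5.36 CPM in Wt1-positive stroma-like cells (1.38, 1.10 to 1.72). The first was 0.961 under naming cell by cell. Lss was level in mesothelial-like cells (6.48 CPM in LFD, ratio 1.00, 0.769 to 1.31) and was 0.814 (0.435 to 1.62) in cycling plasma-like cells. Its top levels were low, 6.48 CPM in LFD mesothelial-like and 6.28 CPM in LFD ILC2-like cells, and 7.56 CPM in T-like and 7.05 CPM in ILC2-like cells in HFD, where few UMIs were counted.

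After lanosterol, demethylation and double-bond shifts lead to cholesterol. Cyp51, the lanosterol demethylase, had ratios below 1 in 10 of 10 types, from 0.641 (0.478 to 0.869) in plasma-like and 0.655 (0.521 to 0.826) in progenitor-like to 0.977 (0.885 to 1.08) in cycling mesothelial-like cells. In mesothelial-like cells it was 75.3 and 52.7 CPM (0.700, 0.644 to 0.761), its top LFD level, with 74.3 CPM in LFD dendritic-like cells, and in HFD cycling mesothelial-like (57.8 CPM) and mesothelial-like cells led. Msmo1, the methylsterol monooxygenase, was below 1 in 8 of 9 types, with ratios of 0.667 (0.511 to 0.876) in progenitor-like and 0.679 (0.613 to 0.751) in mesothelial-like cells, both just inside 1.5-fold, and 0.738 (0.575 to 0.948) in macrophage-like cells. B-like cells were the exception at 1.36 (0.894 to 2.09). Msmo1 was highest in LFD neutrophil-like (62.4 CPM, from few UMIs) and macrophage-like cells (52.2 CPM), and in HFD T-like (42.8 CPM, from few UMIs) and macrophage-like cells (38.5 CPM).

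The other late enzymes varied less or went their own way. Tm7sf2, a sterol reductase, was low throughout, with at most 6.32 CPM (LFD dendritic-like) and 4.46 CPM (LFD progenitor-like), and 4.08 CPM (macrophage-like) and 3.60 CPM (mesothelial-like) in HFD, and was within the fold in the 3 types tested. Nsdhl, which completes the demethylation, was called lower only in endothelial-like cells of 8 types tested (14.2 and 9.13 CPM, 0.643, 0.377 to 1.07) and was 1.20 (0.698 to 2.11) in macrophage-like cells. Its highest levels were in mesothelial-like (19.4 CPM) and ILC2-like cells (15.7 CPM) in LFD and in T-like (25.2 CPM) and mesothelial-like cells (16.1 CPM) in HFD, where the T-like and ILC2-like levels rest on few UMIs. Hsd17b7, the ketosteroid reductase of this route, had a ratio above 1 in all 4 types tested. In progenitor-like cells it was 17.4 CPM in LFD and 34.5 CPM in HFD (1.98, 1.40 to 2.87), the only sterol enzyme called higher there and its top type in both libraries. With cells weighted equally the ratio was 1.41, inside the fold. T-like cells were next (12.8 and 27.7 CPM, from few UMIs). In mesothelial-like cells the ratio was 1.40 (1.15 to 1.71).

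Ebp, the sterol isomerase, was the only sterol enzyme tested in all 12 types. It was highest in cycling plasma-like cells (128 and 127 CPM), next in LFD in plasma-like cells (126 CPM) and in HFD in cycling B-like cells (114 CPM). Of the 12 ratios 10 were below 1, but only that of plasma-like cells had its interval below 1 (0.737, 0.641 to 0.849), and cycling B-like cells were called higher (74.8 and 114 CPM, 1.53, 1.18 to 1.98), against 6.91% of all genes. T-like cells were at 0.919 (0.582 to 1.45) and ILC2-like cells at 0.930 (0.596 to 1.43). Sc5d, the sterol desaturase, was called higher in endothelial-like cells (13.9 and 22.6 CPM, 1.62, 1.10 to 2.41) and lower in macrophage-like cells (28.9 and 13.7 CPM, 0.475, 0.321 to 0.695). The first was inside the fold at 1.145 with cells weighted equally and at 1.48 both when scaled to the median gene and when named cell by cell, and the second was 0.82 under the stricter cell filter. Neutrophil-like cells held its top level (50.7 and 126 CPM, from few UMIs), followed by T-like cells in LFD (40.8 CPM) and ILC2-like cells in HFD (47.0 CPM). Dhcr7, which catalyses the last reduction to cholesterol, was within the fold in all 7 types tested, from 0.773 in B-like to 1.27 in plasma-like cells, with intervals that all held 1. Its highest LFD levels were in T-like (15.3 CPM, from few UMIs) and cycling plasma-like cells (11.6 CPM). In HFD they were in mesothelial-like (10.4 CPM) and cycling plasma-like cells (9.83 CPM).

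Of the genes for the transcription factors, Srebf1 had a ratio above 1 in 4 of 4 stromal-like types and Srebf2 in 3 of 4, the exception being progenitor-like cells (0.913, 0.722 to 1.16). Srebf2, the SREBP best known for sterol genes, had ratios of 1.26 (1.16 to 1.37) in Wt1-positive stroma-like, 1.22 (1.11 to 1.35) in mesothelial-like and 1.32 (1.17 to 1.49) in cycling mesothelial-like cells, and its interval held 1 in the other 7 types tested, endothelial-like cells included (1.28, 0.900 to 1.82). It was highest in dendritic-like (114 CPM LFD, 88.0 CPM HFD) and cycling B-like cells (76.1 and 82.7 CPM). Srebf1, which is tied more to fatty acid synthesis, was above 1 in 8 of 9 types, with 14.4 and 21.5 CPM in mesothelial-like cells (1.495, 1.27 to 1.76) just inside the fold and 5.27 and 8.77 CPM in plasma-like cells (1.67, 0.884 to 3.46) past it, though 1.29 with doublets kept. It was 1.25 (0.874 to 1.83) in progenitor-like and 1.34 (0.883 to 2.05) in macrophage-like cells. Its highest levels were in endothelial-like (22.1 CPM) and progenitor-like cells (17.8 CPM) in LFD and in neutrophil-like (34.4 CPM, from few UMIs) and endothelial-like cells (27.0 CPM) in HFD. These are transcript levels, and processing of the proteins was not measured.

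Insig1, both a brake on SREBP release and a target of it, was highest in progenitor-like cells (55.3 and 58.7 CPM, ratio 1.06, 0.862 to 1.31), followed by macrophage-like cells in LFD (42.9 CPM) and T-like cells in HFD (40.3 CPM). In the same progenitor-like cells 8 sterol enzymes were called lower. It was called higher in B-like cells (9.34 and 16.8 CPM, 1.80, 1.15 to 2.86), against 9.49% of all genes, and was 0.782 (0.665 to 0.918) in cycling mesothelial-like cells. Stard4, a carrier that moves cholesterol between membranes, was highest in endothelial-like cells in LFD (64.4 CPM, and 60.3 CPM in HFD), ahead of ILC2-like cells (39.2 CPM), and level with them in HFD T-like cells (60.5 CPM, from few UMIs). Its ratio was within the fold in all 9 types tested, from 0.819 to 1.142, with every interval holding 1.

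Cyp7b1 (chromosome 3, 18071950 to 18243338, minus strand) had the lowest ratio of all 278 gene and cell type pairs tested. It encodes the oxysterol 7-alpha-hydroxylase, which clears oxysterols such as 25- and 27-hydroxycholesterol, and outside the stromal-like types it had at most 4.83 CPM in a compared type. In LFD it stood at 179 CPM (175 to 183) in Wt1-positive stroma-like, 157 CPM in progenitor-like, 87.0 CPM in cycling mesothelial-like and 66.5 CPM in mesothelial-like cells. In HFD the same types had 81.9 CPM (78.7 to 85.3), 35.0, 38.5 and 34.3 CPM, and no interval of a type overlapped between the libraries. The ratios were 0.457 (0.436 to 0.479), 0.224 (0.188 to 0.266), 0.443 (0.398 to 0.492) and 0.515 (0.467 to 0.567). Markers that tell the stromal-like types apart moved too. A list of 10 mesothelial markers summed to 157 CPM in LFD and 454 CPM in HFD in Wt1-positive stroma-like, 653 and 1193 CPM in cycling mesothelial-like, 1610 and 2245 CPM in mesothelial-like, and 11.2 and 8.67 CPM in progenitor-like cells, with none at 0 in the first 3 types and Krt18 and Muc16 at 0 in the last. In Wt1-positive stroma-like cells the Wt1-positive stroma list of 7 markers summed to 1292 and 1473 CPM, with Wt1 at 296 and 332 CPM and Pdgfra, also on that list, at 490 and 303 CPM. The part of such shifts in the make-up of the types in the Cyp7b1 values, or in other genes and sums of these types, was not tested. Cyp7b1 was the only one of the 34 genes called lower in all 4 stromal-like types, where 0.54% of the 9076 genes tested in all 4 were. Thinned to 2000 UMIs, 29.4% (27.9 to 30.9) of LFD and 15.9% (14.2 to 17.7) of HFD Wt1-positive stroma-like cells had a Cyp7b1 UMI, against 76.2% and 63.2% unthinned at medians of 11317 and 17292 UMIs. In B-like cells, set beside them as a type outside the stroma, at medians of 3716 and 4015 UMIs, the thinned shares were 0.679% and 0.146% and the levels 3.84 and 0.970 CPM. Over the alternatives tried for the 4 types the ratio lay between 0.21 and 0.74, the latter in mesothelial-like cells clustered without integration, where the fold was no longer past 1.5.

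**Figure D4:**
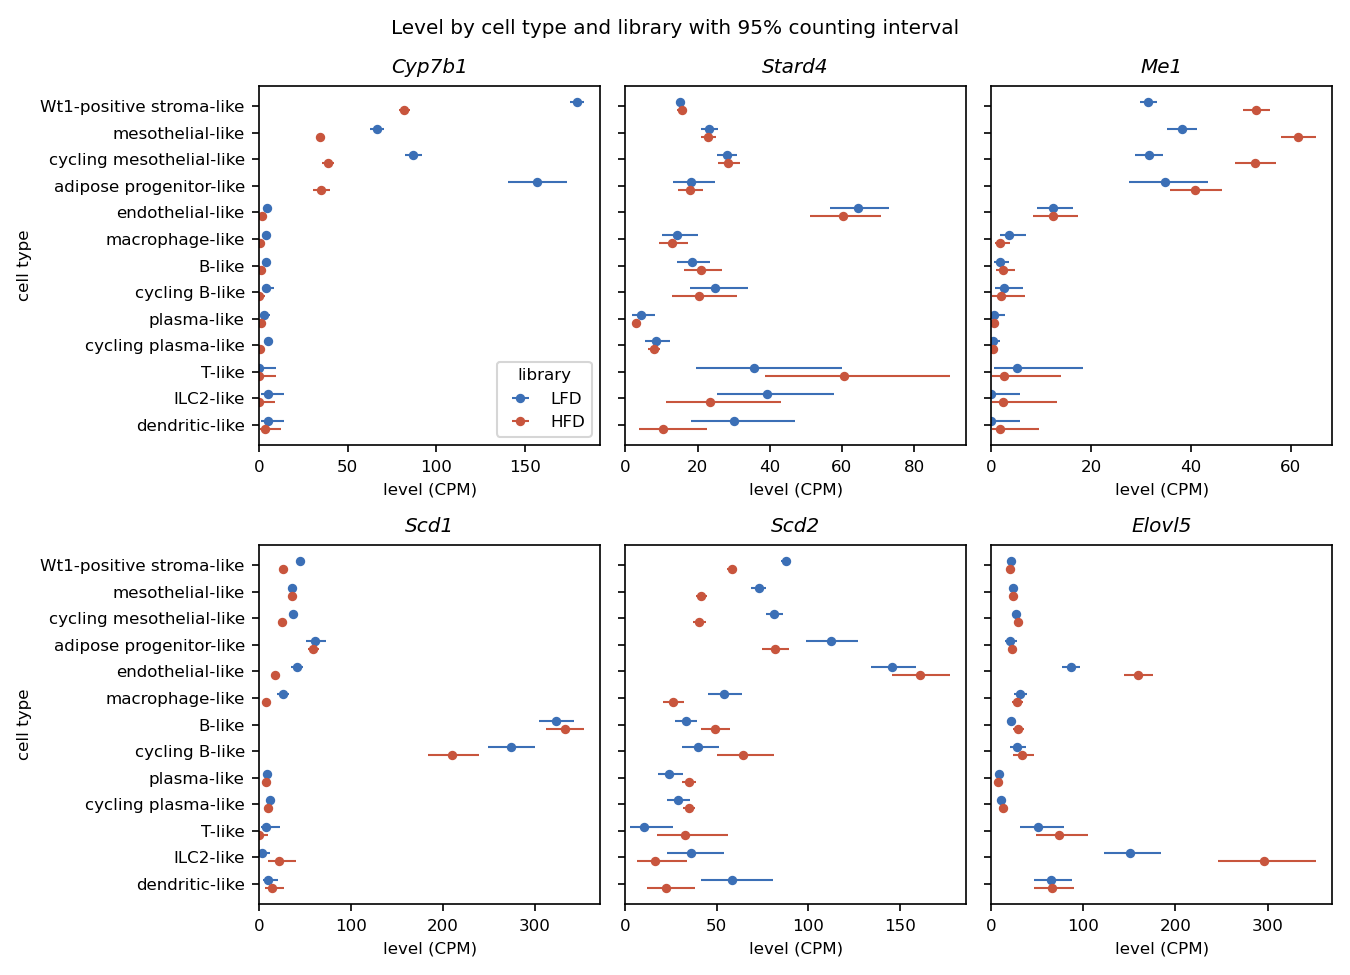
Level in CPM of Cyp7b1, Stard4, Me1, Scd1, Scd2 and Elovl5 in the 12 compared cell types and in dendritic-like cells, with LFD in blue and HFD in red and exact 95% Poisson intervals. Cyp7b1 and Me1 are stromal, with Cyp7b1 lower in HFD in all 4 stromal types and Me1 higher in 3 of them, Scd1 stands far above all other types in B-like (323 and 332 CPM) and cycling B-like cells, and Elovl5 is highest in ILC2-like and endothelial-like cells.

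Among the fatty acid genes, those that supply acetyl-CoA and reducing power were level or higher in HFD. Acly, ATP citrate lyase, was tested in all 12 types and was above 1 in 11, with intervals above 1 in progenitor-like cells (79.8 and 107 CPM, 1.35, with an interval of 1.1 to 1.6) and Wt1-positive stroma-like cells (33.5 and 37.6 CPM, 1.12, 1.04 to 1.21). It was 1.15 (0.966 to 1.36) in macrophage-like, 1.06 (0.616 to 1.82) in T-like and 1.06 (0.625 to 1.79) in ILC2-like cells. Its top types were endothelial-like (90.6 CPM) and macrophage-like cells (88.3 CPM) in LFD and progenitor-like and macrophage-like cells (101 CPM) in HFD. Me1 (chromosome 9, 86581371 to 86695953, minus strand), the cytosolic malic enzyme that makes NADPH, was called higher in 3 stromal types: 31.4 and 53.1 CPM in Wt1-positive stroma-like (1.69, 1.57 to 1.82), 38.2 and 61.5 CPM in mesothelial-like (1.61, 1.46 to 1.78, where 8.38% of all genes were called higher) and 31.6 and 52.9 CPM in cycling mesothelial-like cells (1.68, 1.49 to 1.89). In progenitor-like cells it was 34.8 and 40.9 CPM (1.17, 0.907 to 1.54), and outside the stroma and endothelial-like cells (12.3 CPM in both libraries) it had at most 5.10 CPM in a compared type. Scaled to the median gene, the mesothelial-like ratio was 1.48, just inside the fold, as was the cycling mesothelial-like ratio of 1.46 under naming cell by cell. Of the 50-base words in the last 500 bases of Me1 transcripts, 30.3% occur in other annotated genes. The mesothelial markers given above also rose in the 3 types where Me1 was called higher, and their part in the Me1 values was not tested.

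The synthase steps themselves are carried by Acaca and Fasn. Acaca, acetyl-CoA carboxylase, was within the fold in all 7 types tested, from 0.845 in B-like to 1.26 in cycling plasma-like cells. Its highest LFD levels were in cycling B-like (19.3 CPM) and T-like cells (15.3 CPM, from few UMIs). In HFD they were in cycling mesothelial-like (14.5 CPM) and progenitor-like cells (14.2 CPM). Of the 50-base words in the last 500 bases of Acaca transcripts, 20.2% also occur in other annotated genes. Fasn, fatty acid synthase, was called lower in endothelial-like cells (25.5 and 9.92 CPM, 0.389, 0.240 to 0.609) and plasma-like cells (25.4 and 16.7 CPM, 0.658, 0.479 to 0.916), the latter inside the fold under 5 of 6 alternatives (0.67 to 0.75), and was 40.5 and 27.5 CPM in cycling plasma-like cells (0.679, 0.550 to 0.842), its top type in LFD ahead of ILC2-like cells (36.1 CPM). In HFD, T-like (32.8 CPM) and cycling B-like cells (31.6 CPM) were highest. In the endothelial-like cells the adipocyte genes Cfd (73.8 and 8.73 CPM), Car3 (92.2 and 57.2 CPM) and Adipoq (11.3 and 4.37 CPM) were also lower in HFD, Pnpla2 was higher (57.8 and 92.1 CPM), none of the 10 adipocyte markers was at 0, and their part in the Fasn and Scd1 values of that type was not tested.

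The stearoyl-CoA desaturases Scd1 and Scd2, neighbours on chromosome 19 that put the first double bond into saturated fatty acids, marked different cells. Scd1 was highest in the B lineage before plasma cells: B-like cells had an LFD level of 323 CPM (305 to 342) against 332 CPM (312 to 353) in HFD, with the ratio at 1.03 (0.945 to 1.12), and cycling B-like cells 274 and 210 CPM (0.767, 0.650 to 0.902). Thinned to 2000 UMIs, 45.2% of LFD and 44.8% of HFD B-like cells had an Scd1 UMI, against 1.5% and 1.06% of plasma-like cells, and unthinned shares were 64.1% and 66.2% in B-like cells at medians of 3716 and 4015 UMIs and 8.42% and 7.40% in plasma-like cells at 10263.5 and 11722 UMIs. Plasma-like cells had 8.62 and 7.29 CPM. Scd1 was called lower in Wt1-positive stroma-like (44.0 and 26.1 CPM, 0.593, 0.544 to 0.645), endothelial-like (40.5 and 17.1 CPM, 0.422, 0.294 to 0.595) and macrophage-like cells (25.3 and 7 CPM, 0.277, 0.165 to 0.450). The HFD macrophage-like level is close to that of plasma-like cells, and the macrophage-like ratio was 0.52 with doublets kept and 0.60 under the stricter filter. In mesothelial-like cells the ratio was 0.992 (0.888 to 1.11). Of the 50-base words in the last 500 bases of Scd1 transcripts, 14.0% also occur in other annotated genes, Scd3 and Scd2 among them.

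Scd2 was highest in endothelial-like cells (146 and 161 CPM, 1.10, 0.968 to 1.26) and next in progenitor-like cells (112 and 81.9 CPM, 0.728, 0.625 to 0.851). It was called lower in mesothelial-like (72.9 and 41.6 CPM, 0.570, 0.521 to 0.623), cycling mesothelial-like (81.4 and 40.5 CPM, 0.498, 0.449 to 0.553) and macrophage-like cells (53.8 and 26.0 CPM, 0.483, 0.365 to 0.636), and was 0.667 (0.629 to 0.706) in Wt1-positive stroma-like cells. Under the stricter filter it was 0.99 in macrophage-like and 0.77 in mesothelial-like cells. In the B lineage it lay on the other side: 33.0 and 48.8 CPM in B-like (1.48, 1.16 to 1.90), 39.9 and 64.1 CPM in cycling B-like (1.61, 1.13 to 2.29) and 23.9 and 34.6 CPM in plasma-like cells (1.44, 1.07 to 1.98), with cycling plasma-like cells at 1.21 (0.960 to 1.54). The stromal and B-lineage intervals did not overlap.

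Elovl5, which elongates polyunsaturated fatty acids, was highest in ILC2-like cells, with an LFD level of 151 CPM (122 to 184) against 296 CPM (247 to 353) in HFD (1.97, 1.5 to 2.59), against 16.7% of all genes called higher in that type. Endothelial-like cells were next, at 86.2 and 159 CPM (1.85, 1.59 to 2.14). In the other 9 types tested the ratio was within the fold, between 0.897 and 1.33. Thinned to 2000 UMIs, 30.0% (21.6 to 39.5) of LFD and 42.1% (32.0 to 52.7) of HFD ILC2-like cells had a UMI, with overlapping intervals, and 16.5% (13.3 to 20.1) and 25.9% (21.8 to 30.2) of endothelial-like cells, with intervals apart, at medians of 3984 and 2935.5 UMIs. The cycling markers, at 2100 and 1194 CPM in ILC2-like cells and 1275 and 598 CPM in endothelial-like cells, were lower in HFD in both types, and their part in the Elovl5 values was not tested. Elovl6, the elongase of saturated chains, was highest in T-like cells (56.1 and 58.0 CPM) and was lower in mesothelial-like cells (37.5 and 23.5 CPM, 0.625, 0.553 to 0.707), its second LFD type. Its ratio was 0.742 (0.665 to 0.828) in Wt1-positive stroma-like and 0.776 (0.674 to 0.894) in cycling mesothelial-like cells, the second HFD type at 26.0 CPM.

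The polyunsaturated desaturases Fads1 and Fads2, which lie next to each other on chromosome 19 on opposite strands, were highest in the stroma and were below 1 in every stromal-like type. Fads2 was called lower in mesothelial-like (28.9 and 14.7 CPM, 0.509, 0.439 to 0.591) and Wt1-positive stroma-like cells (26.9 and 15.6 CPM, 0.581, 0.520 to 0.648) and was 0.696 (0.597 to 0.809) in cycling mesothelial-like cells. Its highest levels were in progenitor-like (31.2 and 24.8 CPM) and cycling mesothelial-like cells (31.1 and 21.6 CPM). Fads1 had ratios below 1 in 7 of 7 types, with 0.681 (0.623 to 0.743) in Wt1-positive stroma-like and 0.789 (0.696 to 0.895) in mesothelial-like cells, and was past the fold in cycling plasma-like cells (6.11 and 3.13 CPM, 0.512, 0.285 to 0.947). It was highest in progenitor-like cells (50.9 and 48.5 CPM), followed by Wt1-positive stroma-like cells in LFD (37.3 CPM) and cycling mesothelial-like cells in HFD (31.3 CPM).

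Read across the 4 stromal-like types, 32 of the 34 genes were tested in all 4, without Lss and Tm7sf2. Of these 32, 14 had a ratio below 1 in every type, against 10.7% of all genes tested in all 4: Acat2, Mvd, Fdps, Fdft1, Sqle, Cyp51, Msmo1, Ebp, Cyp7b1, Scd1, Scd2, Elovl6, Fads1 and Fads2. Another 5 of the 32 (Ggps1, Hsd17b7, Srebf1, Acly and Me1) had a ratio above 1 in every type, against 36.8% of all genes tested in all 4. These shares are descriptions, since the 4 ratios come from the same 2 libraries.

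The Wt1-positive stroma-like cells were made of a Cxcl13-led cluster (1852 LFD and 847 HFD cells) and an Ereg-led cluster (1743 and 840 cells), which gave different values under the same pooled sum. The sterol sum was 400 and 364 CPM in the Cxcl13-led cluster (0.908, 0.875 to 0.942) and 481 and 507 CPM in the Ereg-led cluster (1.06, 1.03 to 1.09), with intervals on opposite sides of 1. Idi1 was 1.10 (0.927 to 1.30) and 1.43 (1.27 to 1.61), and Sqle 0.716 (0.578 to 0.883) and 0.995 (0.874 to 1.13). Scd1 differed most: it stood at 33.0 and 31.0 CPM in the Cxcl13-led cluster (0.941, 0.828 to 1.07) and at 52.3 and 22.1 CPM in the Ereg-led cluster (0.421, 0.374 to 0.474). Cyp7b1 was lower in both, at 212 and 99.1 CPM and at 154 and 68.0 CPM.

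Cycling cells were set against non-cycling cells of the same name within each library. No median or share of all genes was computed for these pairs, and the part of a shift shared by most genes was not tested. The sterol sum was higher in cycling than in non-cycling plasma-like cells, 1.23-fold (1.13 to 1.34) in LFD and 1.41-fold (1.34 to 1.48) in HFD, and in cycling than in non-cycling B-like cells, 1.18-fold (1.07 to 1.31) and 1.33-fold (1.18 to 1.5). Idi1 in plasma-like cells was 2.07-fold (1.30 to 3.39) higher in LFD and 5.16-fold (3.68 to 7.40) higher in HFD. The fatty acid sum was higher in cycling plasma-like cells (1.43-fold and 1.34-fold) and was 0.961 in LFD and 0.818 in HFD between cycling and non-cycling B-like cells. That B-like value rested on Scd1: without it the sums were 190 and 159 CPM in LFD (1.19-fold, 1.03 to 1.37) and 220 and 193 CPM in HFD (1.139-fold, with an interval of 0.976 to 1.33). Fasn followed the plasma-like sum at 1.60-fold (1.15 to 2.25) and 1.65-fold (1.36 to 2.01). These pairs also differ in their type's own markers. The 9 plasma markers summed to 14492 CPM in cycling and 22686 CPM in non-cycling plasma-like cells in LFD and to 19141 and 30921 CPM in HFD, and the 9 B-cell markers to 6827 and 7947 CPM in LFD and 5918 and 8125 CPM in HFD in the B-like pair. In the mesothelial-like pair, with the most counts, the sterol sum was lower in cycling cells, at 0.759 (0.739 to 0.780) in LFD and 0.896 (0.869 to 0.924) in HFD, where the mesothelial markers summed to 653 and 1193 CPM in its cycling and to 1610 and 2245 CPM in its non-cycling cells. Wt1-positive stroma-like cells had 157 and 454 CPM of these markers. Their sterol sums were 446 and 443 CPM, against 585 and 535 CPM in cycling and 770 and 597 CPM in non-cycling mesothelial-like cells. When each cell was named from its own marker UMIs, 147 LFD and 144 HFD cells took the cycling mesothelial-like name, against 901 and 568 by cluster. The part of these marker differences in the sums of the 3 pairs was not tested.

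A list of 19 further genes of the same pathways was set beside these. In adipose progenitor-like cells 2 of the 17 that passed were called higher, against 15.5% of all genes, in endothelial-like cells 2 of 18, against 17.4%, and in mesothelial-like cells 1 of 18, against 8.38%, so these counts were at or below the share of all genes. B-like cells had 3 of 16 called higher (9.49%), cycling plasma-like cells 2 of 16 (5.44%), cycling mesothelial-like cells 2 of 18 (7.9%), cycling B-like cells 1 of 10 (6.91%), macrophage-like cells 1 of 16 (7.69%) and plasma-like cells 1 of 15 (6.6%). Mylip, a ligase that degrades lipoprotein receptors, was higher in endothelial-like cells (156 and 334 CPM, 2.14, 1.93 to 2.38). Mylip was also higher in B-like (1.62), adipose progenitor-like (1.60), plasma-like (1.65, 0.990 to 2.92) and cycling plasma-like cells (1.68). Abcg1, a sterol exporter, was higher in B-like (20.0 and 55.6 CPM, 2.77, 2.10 to 3.70), macrophage-like (30.5 and 61.3 CPM, 2.01, 1.54 to 2.65) and cycling plasma-like cells (1.29 and 4.11 CPM, 3.20, 1.17 to 12.2). Soat1, which esterifies cholesterol for storage, was higher in mesothelial-like (39.5 and 70.9 CPM, 1.80, 1.63 to 1.97) and cycling mesothelial-like cells (53.0 and 92.2 CPM, 1.74, 1.59 to 1.91). Insig2 was higher in B-like (1.57), progenitor-like (1.58) and cycling B-like cells (1.74, 0.971 to 3.13), Mid1ip1 in endothelial-like cells (1.83) and Acss2 in cycling mesothelial-like cells (1.57, 0.964 to 2.59). The genes called lower were all in plasma-like cells, where 3 of 15 were: Slc25a1 (0.626), Hsd17b12 (0.603) and Cyb5b (0.619), among the 14.0% of all genes lower there.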

How the data were processed

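The deposited matrices hold unnormalized UMI counts of genes by cells, made by the authors with the 10x 3′ v3 kit and, per the labels' processing notes, bcl2fastq 2.17.1.14, Cell Ranger 4.0.0 (STAR) and Seurat 4.1.0 on mm10. There was 1 library per diet, each of 2 pooled mice, so nothing separates diet from mouse, sort or library. Cells with 500 to 40000 UMIs and under 12.5% mitochondrial UMIs were kept (10216 LFD, 8537 HFD), and those with the highest Scrublet scores (scanpy 1.11.5) were removed as doublets up to an assumed rate of 0.8% per 1000 barcodes (9.03% and 7.71%, where the automatic threshold marked 3.44% and 3.91%). The libraries were integrated and clustered with Seurat 5.3.0 (R 4.3.3) on 1992 genes, without the described genes, into 19 clusters, named from marker lists. UMIs were summed per type and library. Levels carry exact Poisson, ratios exact conditional binomial and shares Clopper-Pearson 95% intervals (scipy 1.17.1). To compare shares of cells, each cell was thinned to 2000 UMIs. Ratios were called at 1.5-fold with at least 50 counts. In each type the text names the 3 members with the highest and the 3 with the lowest ratio among those with that many counts, and for each member the 2 types with the highest level. Alternatives changed the scaling, doublet removal, integration, naming, cell filter, weighting, count minimum, fold and, chosen after seeing the data, the genes in a sum. The script was tested on simulated counts. The members, marker lists and further genes were chosen with earlier results of these data known. Types with under 100 cells in a library were not compared.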

Additional observations from a re-analysis of the deposited data

Results flagged for a closer look

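Sc5d, the sterol desaturase, was 1.62-fold higher in HFD in endothelial-like cells and lower in macrophage-like cells (ratio 0.475), so that its ratio differed 3.42-fold between these types in opposite directions. The endothelial-like ratio was 1.145 with cells weighted equally and the macrophage-like ratio 0.82 under the stricter cell filter, each inside the fold. Scd2, a stearoyl-CoA desaturase, was 1.61-fold higher in HFD in cycling B-like cells and lower in macrophage-like cells (0.483), a 3.33-fold difference. Under the stricter filter the macrophage-like Scd2 ratio was 0.99, inside the fold. With 1 library per diet neither difference was tested.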

How the results depend on the processing

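No paired analysis was possible because each diet had 1 library, and no library could be left out. Of the 63 gene and cell type pairs called, the direction was kept in 63 under median-of-ratios scaling, no doublet removal, no integration and equal weighting of cells, with 55, 53, 60 and 56 still past the fold. Naming cell by cell kept it in 58 of 62 (44 past the fold) and the stricter filter in 45 of 46 (35). The sterol sum became 0.936 (Wt1-positive stroma-like), 0.647 (progenitor-like), 0.836 (cycling mesothelial-like), 0.742 (endothelial-like), 0.710 (mesothelial-like) and 0.780 (plasma-like) under scaling, and the fatty acid sum 0.813 (Wt1-positive stroma-like), 0.787 (cycling mesothelial-like), 0.796 (mesothelial-like) and 0.999 (endothelial-like, reversed from 1.10). Without integration the sterol sum was 0.957 in Wt1-positive stroma-like and 0.709 in mesothelial-like cells, and with doublets kept 0.746 in progenitor-like and 0.912 in macrophage-like cells, where the fatty acid sum of plasma-like cells was 0.635. Naming cell by cell gave sterol sums of 0.885 (Wt1-positive stroma-like), 1.03 (progenitor-like, reversed), 0.792 (cycling mesothelial-like) and 0.710 (mesothelial-like), and a reversed endothelial-like fatty acid sum of 0.966. It also reversed Mvk (1.03), Idi1 (1.23) and Fdft1 (1.01) in progenitor-like and Lss (0.961) in cycling mesothelial-like cells. The stricter filter gave sterol sums of 1.03 (Wt1-positive stroma-like), 1.19 (macrophage-like, reversed) and 0.874 (mesothelial-like), fatty acid sums of 0.823 (Wt1-positive stroma-like), 0.976 (macrophage-like) and 1.01 (mesothelial-like, reversed), and Sqle at 1.09 in macrophage-like cells (reversed). Equal weighting of cells gave sterol sums of 0.750 (macrophage-like) and 0.797 (mesothelial-like) and a reversed endothelial-like fatty acid sum of 0.879. Leaving out of each sum the gene that moved it most, a setting chosen after seeing the data, gave sterol sums of 1.03 (Wt1-positive stroma-like), 0.751 (progenitor-like), 0.969 (cycling mesothelial-like) and 0.831 (mesothelial-like) without Fdps and 0.887 (cycling B-like) and 0.738 (cycling plasma-like) without Ebp. The fatty acid sum was 0.842 (ILC2-like) and 0.929 (endothelial-like) without Elovl5, both reversed, 1.22 (B-like) and 1.16 (cycling B-like) without Scd1, 0.780 (Wt1-positive stroma-like) and 0.778 (mesothelial-like) without Me1, 0.895 (progenitor-like) and 0.684 (macrophage-like) without Acly, and 0.969 (cycling mesothelial-like) and 0.841 (plasma-like) without Scd2, and for cycling over non-cycling HFD B-like cells it reversed to 1.139 without Scd1. The pairs called higher and lower, 12 and 51, were 34 and 80 at a minimum of 10 counts, 7 and 28 at 200, and 0 and 18 at 2-fold. The share of all genes called under these other limits was not computed, so these counts have no background beside them. Naming cell by cell and the stricter filter change which cells enter a type (the strict filter left no value in 5 types, cell-by-cell naming none in T-like and ILC2-like cells), and the cause of the other changes was not tested. Thinly counted types (T-like, ILC2-like, cycling B-like) allow few genes to be compared.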

Other observations

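Dendritic-like cells, with 97 LFD and 76 HFD cells too few to compare, held the highest LFD levels of Pmvk, Idi1, Fdps and Srebf2 among the types ranked. Idi1 had an LFD level of 60.1 CPM (42.5 to 82.4) against 31.1 CPM (18.4 to 49.1) in HFD, and Cyp51 74.3 CPM (54.6 to 98.8) against 31.1 CPM (18.4 to 49.1), with intervals apart for Cyp51 only. Srebf2 had 114 CPM (89.0 to 143) against 88.0 CPM (65.5 to 116), with intervals that overlapped.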
